A study of Mus musculus with 6 samples.

Results

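The receptors through which liver cells read insulin, glucagon, catecholamines, vasopressin, leptin, prolactin and several growth factors were examined as 10 genes, Insr, Igf1r, Egfr, Fgfr4, Lepr, Prlr, Gcgr, Adrb3, Adra1b and Avpr1a. They were taken by symbol from the 54532 genes with an Ensembl identifier in the table of read counts, and all 10 passed the filter on low counts that left 12795 genes for testing. The study asked how allantoin, an oxidation product of uric acid, acts on fatty liver in mice on a high-fat diet (HFD). Liver RNA came from 6 wild-type male C57BL/6J mice, 3 in the HFD group and 3 in the Allantoin-H group, and each library is 1 mouse. All were 8 weeks old at the start and ate a diet with 60% of its energy from fat for 4 weeks, and for the next 4 weeks either continued on it alone (HFD) or also drank water containing allantoin at 0.3 mg/mL (Allantoin-H). The sample labels name a lower concentration, 0.06 mg/mL, as well and do not say which library had which. The higher one is printed here because the Allantoin-H group is defined by it.

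Hepatocytes carry receptors of 3 classes that are represented here. Receptor tyrosine kinases such as those for insulin, epidermal growth factor (EGF) and fibroblast growth factors (FGF) phosphorylate themselves on ligand binding and recruit adaptor proteins, the cytokine receptors for leptin and prolactin act through JAK kinases and STAT factors, and the G protein-coupled receptors for glucagon, catecholamines and vasopressin raise cyclic AMP or calcium. In liver these routes govern the switch between storing and releasing glucose, lipid handling, growth and bile acid synthesis.

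The HFD and Allantoin-H libraries held 11326372 to 14601457 counts. Levels are given in CPM, the counts of a gene scaled to a common library size after TMM normalization, which offsets differences in library composition. Genes of the mitochondrial chromosome took 17.9% to 36.5% of the counts in HFD libraries and 6.92% to 11.4% in Allantoin-H libraries, and leaving them out changed no call among the 10 receptor genes. Scaling by library size only moved the median log2 fold change of all tested genes from -0.03 to 0.38, so differences under that scaling are also given relative to this median. A change of scaling alters all genes of a library by the same factor. Values relative to the median are therefore nearly equal under both scalings by construction, and their likeness is not a separate check. The labels give no batch or collection date, so an effect of either cannot be told apart from the group. Albumin, the main secreted product of hepatocytes, was at 54402 to 82145 CPM in the 6 libraries. These are whole-tissue libraries, in which fewer cells of a type and less RNA per cell cannot be told apart.

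Of the 10 receptor genes, 3 were lower in Allantoin-H than in HFD livers and 0 were higher at an adjusted p under 0.05 in edgeR's quasi-likelihood test. The 3 were Adrb3, Egfr and Gcgr, at 11-fold, 2.30-fold and 1.88-fold higher mean CPM in HFD livers. Over all tested genes 13.0% were called lower, 11.3% higher and 24.3% in either direction. A further 3 genes, Avpr1a, Adra1b and Fgfr4, had every Allantoin-H library below every HFD library without passing the adjusted threshold. On TMM-normalized CPM 6 of 10 thus did not overlap between groups, all lower in Allantoin-H livers. Over all tested genes 21.9% did not overlap in that direction, 22.4% in the other and 44.3% in either. With scaling by library size only, the log2 fold changes of Avpr1a, Adra1b and Fgfr4 were -0.32, -0.12 and -0.06, none called. An unadjusted p under 0.05 was reached by 6 of the 10, all lower. The share of all tested genes at that threshold was not counted, so that 6 has no comparison. DESeq2 and limma-voom each called 3 lower and 0 higher. Over all 12795 tested genes, DESeq2 called 1966 lower and 1747 higher, and limma-voom 1596 lower and 1523 higher. The log2 fold change was below 0 in 7 of 10, beside 51.8% of all tested genes, and its median was -0.54 over the receptor genes and -0.03 over all tested genes. The 3 genes with a value above 0 were Insr, Prlr and Lepr, and their groups overlapped.

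**Figure D1:**
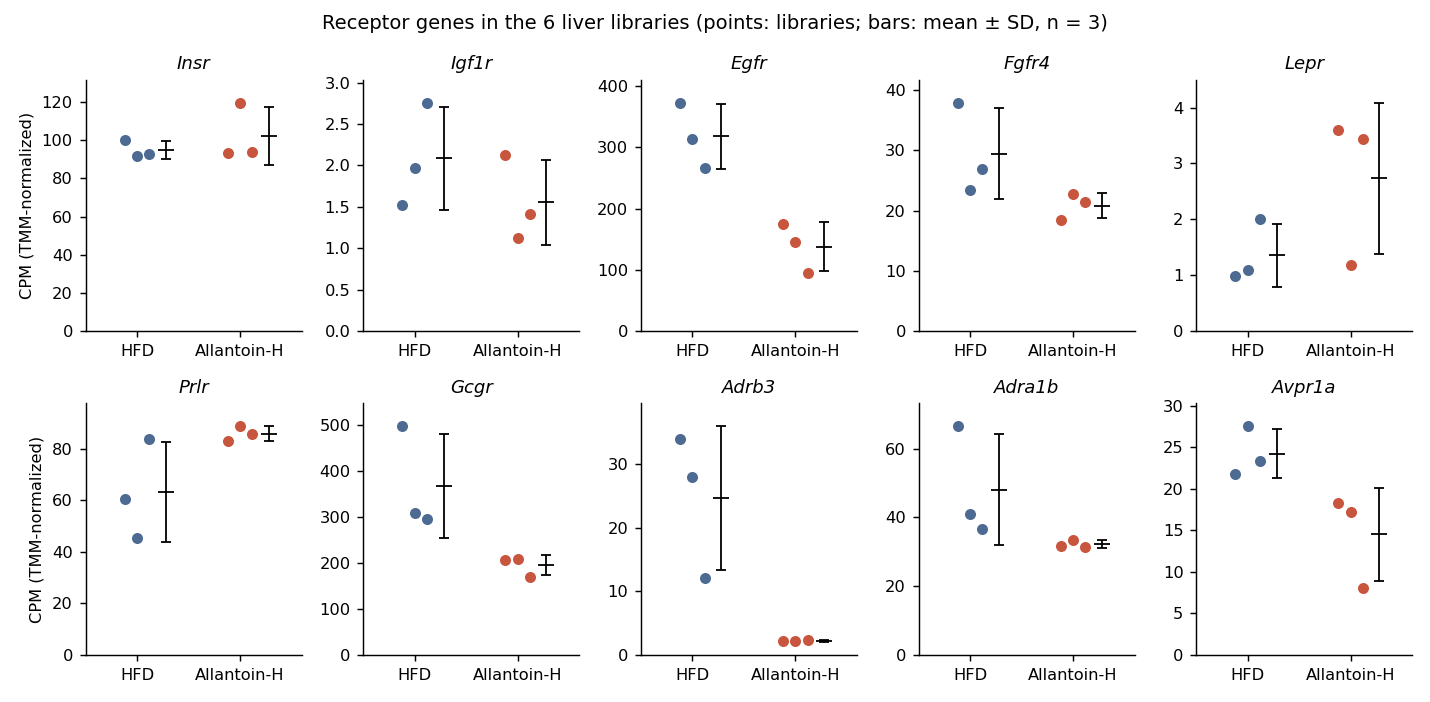
Level of each receptor gene in TMM-normalized CPM (vertical axis from 0) in the 3 HFD and 3 Allantoin-H libraries, with points for libraries and bars for the mean ± SD (n = 3). Egfr, Gcgr, Adrb3, Avpr1a, Adra1b and Fgfr4 have all Allantoin-H points below all HFD points, and the groups overlap for Insr, Igf1r, Lepr and Prlr.

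Egfr (ENSMUSG00000020122, chr11:16752203-16918158 of GRCm38, plus strand), the receptor for EGF and related ligands and a regulator of liver growth, was the most abundant of the 4 tyrosine kinase genes per kb of transcript. It stood at 373, 313 and 266 CPM in the HFD libraries and at 174, 145 and 94.4 CPM in the Allantoin-H libraries. The lowest HFD library was above the highest Allantoin-H library. The mean went from 317 ± 53.3 to 138 ± 40.4 CPM (SD, n = 3 each), and the log2 fold change was -1.20 with an SE of 0.24 (95% interval -1.76 to -0.65, edgeR adjusted p = 0.0101). With scaling by library size only, the log2 fold change was -0.76 (edgeR adjusted p = 0.0523). Relative to the median of all genes that is -1.15, against -1.17 with TMM scaling, values that lie close by construction.

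Insr (ENSMUSG00000005534, chr8:3122061-3279617, minus strand), the insulin receptor, showed little difference with TMM scaling. Its level was 100.2, 91.8 and 92.7 CPM in HFD livers and 93.3, 119.6 and 93.9 CPM in Allantoin-H livers. Of these, 5 libraries lay between 91.8 and 100.2 CPM and Allantoin-H replicate 5 lay above them. The log2 fold change was 0.11 (SE 0.16, 95% interval -0.26 to 0.48, edgeR adjusted p = 0.670), and without that library it was -0.014. With scaling by library size only it was 0.53 (edgeR adjusted p = 0.0746), or 0.14 relative to the median of all genes. Igf1r (ENSMUSG00000005533, chr7:67952827-68233668, plus strand), the receptor for insulin-like growth factor 1, was read at only 14 to 33 counts per library. Its CPM of 1.53, 1.98 and 2.76 in HFD overlapped the 2.13, 1.12 and 1.42 in Allantoin-H. A log2 fold change of -0.44 with an SE of 0.44 (edgeR adjusted p = 0.494) leaves an interval from -1.42 to 0.55, so differences within that range were not excluded.

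Fgfr4 (ENSMUSG00000005320, chr13:55152640-55168759, plus strand) encodes the FGF receptor that represses bile acid synthesis in hepatocytes in response to the gut hormone FGF15. HFD libraries held 37.9, 23.4 and 26.9 CPM and Allantoin-H libraries 18.5, 22.7 and 21.3 CPM. The groups did not overlap, but the gap between HFD replicate 2 and Allantoin-H replicate 5 was small, and the difference of -0.50 on the log2 scale (SE 0.21) did not pass (edgeR adjusted p = 0.112).

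The RefSeq promoter windows of Egfr and Gcgr, both called lower, are printed because they show the composition of the sequence just before their start sites. Each is the 250 bases upstream of a RefSeq transcription start in GRCm38.p6, read 5′ to 3′ on the gene's own strand, which is the plus strand for both. Capitals mark a GC box, GGGCGG or its reverse complement CCGCCC, searched on both strands. The Egfr window is chr11:16751953-16752202 and the Gcgr window chr11:120530477-120530726, whose last bases lie inside the gene as GENCODE draws it.
Egfr: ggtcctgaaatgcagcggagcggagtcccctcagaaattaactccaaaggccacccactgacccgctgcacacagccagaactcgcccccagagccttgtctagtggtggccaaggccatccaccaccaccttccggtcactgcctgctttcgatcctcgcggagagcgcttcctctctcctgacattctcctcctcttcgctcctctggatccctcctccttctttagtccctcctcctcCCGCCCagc
Gcgr: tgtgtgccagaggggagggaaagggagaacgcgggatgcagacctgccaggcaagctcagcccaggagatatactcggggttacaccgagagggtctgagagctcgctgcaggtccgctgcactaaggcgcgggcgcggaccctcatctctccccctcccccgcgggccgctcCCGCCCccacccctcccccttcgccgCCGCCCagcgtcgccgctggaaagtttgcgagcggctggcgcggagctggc
The Egfr window is 60.8% G and C with 1 GC box, whose first base lies 9 bases before the start, and the Gcgr window is 70.4% G and C with 2 GC boxes, starting 77 and 51 bases before it. The median over 32851 RefSeq promoter windows was 52.4%. RefSeq windows were given for 8 of the 10 receptor genes, 12 windows in all, and not for Adrb3 and Insr. A GC box was found in 6 of the 12, in Egfr, Gcgr, Adra1b, Fgfr4, Igf1r and Lepr, beside 32.7% of all windows. These 6 genes include both called and uncalled ones. The cyclic AMP response element TGACGTCA was in none of the 12 windows (1.55% of all windows), and its half-site TGACG, which that element contains, was in 1 window each of Avpr1a and Prlr (17.8% of all). The Avpr1a window also held the TATA box TATAAA (12.4% of all). The Prlr window also held the STAT5 motif TTCNNNGAA (7.02% of all) and the glucocorticoid half-site TGTTCT (16.1% of all). The E-box CACGTG (6.02% of all) and the nuclear receptor repeat known as DR1 (0.0335% of all) were in none. All were searched on both strands, and a match says only that these letters occur there.

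Of the cytokine receptors, Prlr (ENSMUSG00000005268, chr15:10177238-10349180, plus strand) was the more abundant per kb of transcript in these livers. The prolactin receptor gene was at 60.7, 45.3 and 83.9 CPM in HFD and at 83.1, 88.7 and 85.9 CPM in Allantoin-H libraries. The Allantoin-H libraries lay close together (coefficient of variation 3.26%) at the level of the highest HFD library, and the HFD libraries were spread (30.6%). The log2 fold change of 0.44 (SE 0.22) did not pass (edgeR adjusted p = 0.176). It passed in 2 alternatives, at 0.70 without HFD replicate 3 (edgeR adjusted p = 0.0223) and at 0.84 with scaling by library size only (edgeR adjusted p = 0.0385), the latter 0.46 relative to the median of all genes.

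Lepr (ENSMUSG00000057722, chr4:101717404-101815352, plus strand), the receptor for the adipocyte hormone leptin, had 9 to 51 counts per library. HFD libraries held 0.983, 1.09 and 2.01 CPM and Allantoin-H libraries 3.59, 1.18 and 3.44 CPM. Allantoin-H replicates 4 and 6 were above all HFD libraries, and replicate 5 fell among them. The interval of the log2 fold change (0.98, SE 0.53) ran from -0.22 to 2.18 (edgeR adjusted p = 0.204). A pseudogene with a near-identical stretch of 273 bases, Gm12797, had 0 counts in all 6 libraries, and Gm21973, which shares 203 exon bases with Prlr, had 4 counts in all.

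Among the G protein-coupled receptors, Gcgr (ENSMUSG00000025127, chr11:120530699-120538986, plus strand), the glucagon receptor that drives hepatic glucose release through cyclic AMP, was the most abundant per kb of transcript. HFD libraries held 498, 308 and 296 CPM and Allantoin-H libraries 207, 210 and 170 CPM. HFD replicate 1 was far above the other HFD libraries, but the groups did not overlap. The mean went from 367 ± 113 to 196 ± 22.1 CPM (SD, n = 3 each) with a log2 fold change of -0.91 (SE 0.23, 95% interval -1.43 to -0.39, edgeR adjusted p = 0.0221). When HFD replicate 1 was left out, the gene was still called at -0.63. Leaving out Allantoin-H replicate 4, 5 or 6 gave -0.94, -0.96 and -0.82 with edgeR adjusted p values of 0.0729, 0.0760 and 0.0868, above the threshold. Over all tested genes these fits also called fewer, 460 to 702 higher and 564 to 832 lower, against 1446 and 1666 with all 6 libraries. With scaling by library size only the Gcgr value was -0.46 (edgeR adjusted p = 0.146). Relative to the median of all genes that is -0.84, against -0.88 with TMM scaling, again close by construction. The antisense gene Gm11789 overlaps Gcgr without sharing exon bases and ranged from 29.5 to 38.3 CPM over both groups.

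Adrb3 (ENSMUSG00000031489, chr8:27225776-27250616, minus strand), the β3-adrenergic receptor best known from adipocytes, had the largest difference of the 10 genes. It was at 34.0, 28.05 and 12.1 CPM in HFD libraries and at 2.20, 2.13 and 2.36 CPM in Allantoin-H libraries, from 311, 284 and 145 counts against 30, 36 and 35. The HFD libraries were spread (coefficient of variation 45.7%), and the Allantoin-H libraries lay close together (5.35%). Mean levels were 24.7 ± 11.3 and 2.23 ± 0.119 CPM (SD, n = 3 each), and the log2 fold change was -3.46 (SE 0.38, 95% interval -4.32 to -2.60, edgeR adjusted p = 0.00204). It was called lower in all 19 alternatives, at log2 fold changes from -3.79 to -3.01.

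Adipocyte markers are given here beside the Adrb3 values. HFD replicate 2 held 520 counts of Adipoq, 498 of Plin1, 115 of Lep and 200 of Retn, whereas each of the other 5 libraries held at most 2 counts of any of these genes. HFD replicate 1 had 0 counts of all 4 and the highest Adrb3 level, and with HFD replicate 2 left out Adrb3 was still called, at -3.36. Of 17 adipocyte markers, 10 were tested and 0 were called by edgeR, with 1 higher and 1 lower at an unadjusted p under 0.05, 1 called by DESeq2 and 0 by limma-voom. Adipoq, Plin1, Lep, Retn, Slc2a4, Trarg1 and Ucp1 did not pass the filter on low counts, so the calls do not cover them. Each of these was highest in HFD replicate 2. The summed level of all 17 markers ran from 3373 to 4464 CPM in HFD and from 2716 to 4167 CPM in Allantoin-H libraries, and most of it was Car3, which hepatocytes also express. The other 16 markers summed to 251, 1205 and 324 CPM in HFD and to 342, 243 and 442 CPM in Allantoin-H libraries, so that HFD replicate 2 stood apart, with Fabp4 at 256 CPM against 2.78 to 11.1 CPM in the other libraries. The part of adipocyte RNA in the Adrb3 level of HFD replicate 2, or in the Adrb3 difference between the groups, was not tested. The antisense gene Gm45470 shares 839 exon bases with Adrb3, and whether the counting used strand is not given, so reads of the pair cannot be told apart with certainty. Summed over both genes, the level was 38.4, 32.4 and 13.9 CPM in HFD and 3.45, 4.67 and 3.51 CPM in Allantoin-H libraries, a ratio of 7.28 between the means.

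Adra1b and Avpr1a both signal through Gq and calcium to release glucose from glycogen. Adra1b (ENSMUSG00000050541, chr11:43774606-43901210, minus strand), the main α1-adrenergic receptor of hepatocytes, was at 66.5, 40.9 and 36.7 CPM in HFD and at 31.6, 33.5 and 31.5 CPM in Allantoin-H libraries. HFD replicate 1 stood well above the others, as it did for Gcgr and Fgfr4. The log2 fold change of -0.57 (SE 0.23) did not pass (edgeR adjusted p = 0.0967), and it passed without HFD replicate 3 (-0.73, edgeR adjusted p = 0.0333). Avpr1a (ENSMUSG00000020123, chr10:122448499-122453452, plus strand), the vasopressin V1a receptor, was at 21.8, 27.6 and 23.4 CPM in HFD and at 18.3, 17.2 and 8.03 CPM in Allantoin-H libraries. Allantoin-H replicate 6 was the lowest by a wide margin. A log2 fold change of -0.74 (SE 0.29, edgeR adjusted p = 0.0937) became a call only when no filter on low counts was applied (-0.70, edgeR adjusted p = 0.0163).

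**Figure D2:**
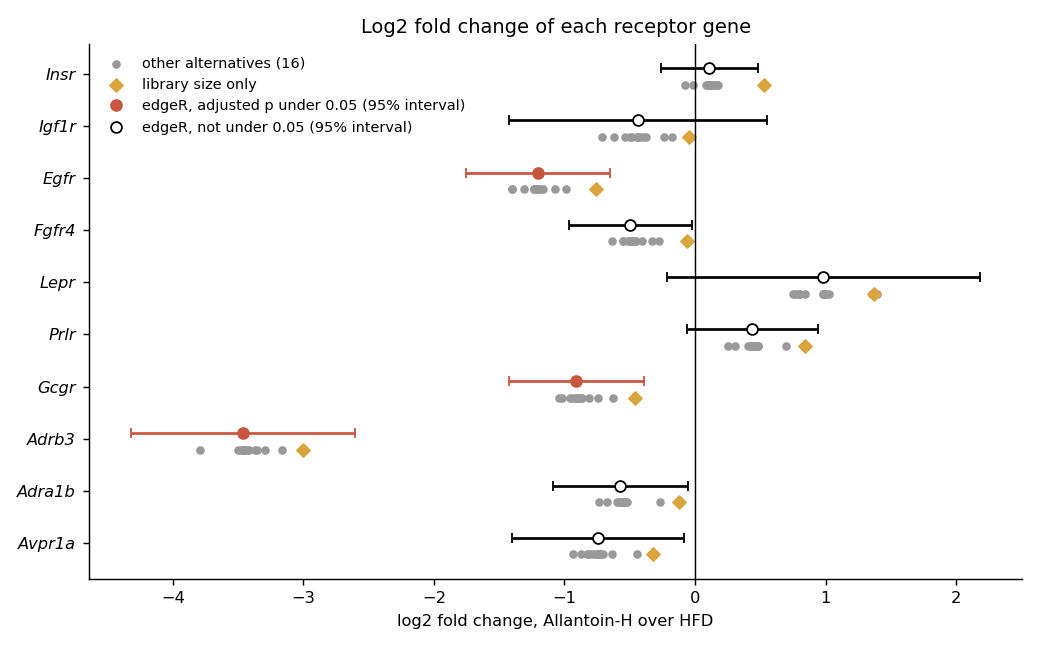
Log2 fold change of each receptor gene, Allantoin-H over HFD (horizontal axis), with the edgeR estimate and its 95% interval above and the estimates under 17 alternatives below (16 as grey points, scaling by library size only as a diamond, and Lepr without the setting that required 10 counts in every library). Filled estimates have an adjusted p under 0.05. Adrb3, Egfr and Gcgr lie below 0 in every alternative, and scaling by library size only moves each gene toward higher values.

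Levels were compared between genes per kb of the longest transcript, since longer transcripts collect more reads. On this scale Gcgr led in HFD livers at 147 CPM per kb, followed by Egfr at 31.1, Adra1b at 14.4 and Insr at 10.1, and none of these neighbours overlapped between libraries. Avpr1a (9.09), Fgfr4 (8.85), Adrb3 (8.84) and Prlr (6.39) followed, each overlapping the next, and Avpr1a also overlapped Insr. Lepr at 0.245 and Igf1r at 0.183 CPM per kb came last, overlapped each other and lay below the rest. The middle of this order depended on the length used. Per kb of all annotated exon bases of a gene, Insr was at 6.91 in HFD livers, below Avpr1a (9.09), Fgfr4 (8.30) and Adrb3 (7.32).

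In Allantoin-H livers Gcgr was again first at 78.1 CPM per kb. Egfr at 13.5 overlapped Insr at 10.9, and Insr overlapped Adra1b at 9.67. Prlr at 8.68 stood above Fgfr4 at 6.26 without overlap, and Fgfr4 overlapped Avpr1a at 5.44. Per kb of all annotated exon bases the means of Prlr (5.60) and Fgfr4 (5.88) had the opposite order. Adrb3 at 0.798, Lepr at 0.494 and Igf1r at 0.136 CPM per kb formed the low end, with no overlap among neighbours. Summed over the 10 genes the level was 304, 208 and 195 CPM per kb in HFD and 142, 144 and 116 in Allantoin-H libraries. Within that sum Gcgr made up 61.7% ± 3.29 in HFD and 58.3% ± 0.118 in Allantoin-H livers (SD, n = 3 each). Insr went from 4.43% ± 0.812 to 8.18% ± 0.989 of the sum, Prlr from 2.85% ± 1.29 to 6.53% ± 0.808, Egfr from 13.4% ± 1.36 to 9.95% ± 2.06, and Adrb3 from 3.68% ± 1.33 to 0.603% ± 0.107. The mean of the sum itself fell from 236 to 134 CPM per kb, so a larger share is not by itself a higher level. Insr was at 10.1 CPM per kb in HFD and 10.9 in Allantoin-H livers.

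**Figure D3:**
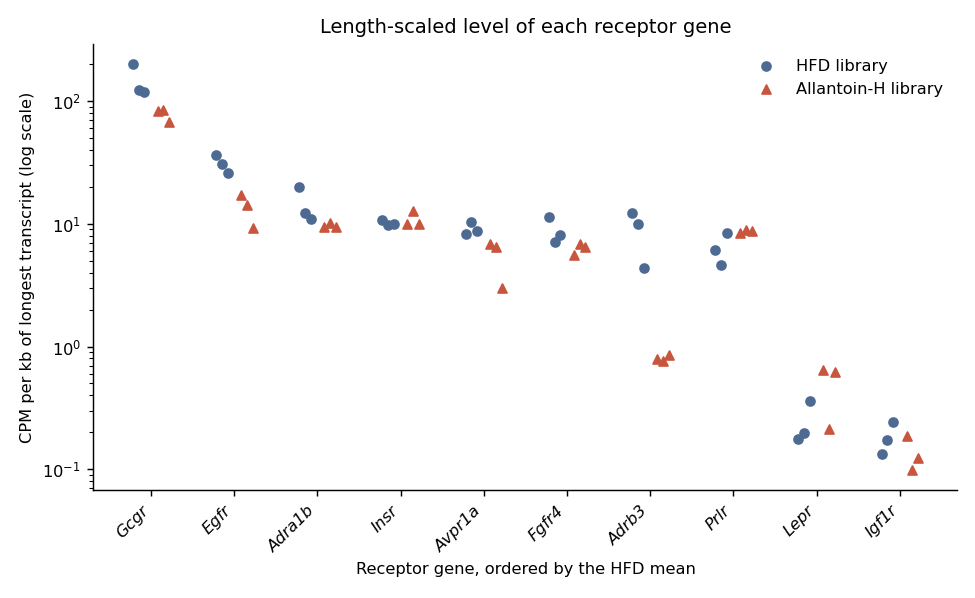
CPM per kb of the longest transcript (log axis) for each receptor gene in each library, ordered by the HFD mean, with circles for HFD and triangles for Allantoin-H libraries. Gcgr is highest in both groups, Lepr and Igf1r lie under 1, and Adrb3 moves from the middle of the range to a level under 1 in Allantoin-H livers.

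A ratio of raw counts within a library needs no scaling between libraries. Insr was taken as the reference after its values were seen, because its TMM-normalized level differed least. With scaling by library size only Insr was at 0.53 on the log2 scale, and Igf1r (-0.04) and Fgfr4 (-0.06) were among the genes that differed less. The choice of reference thus rests on TMM scaling, and the ratios are not a check independent of it. Per 100 Insr reads there were 497, 336 and 319 Gcgr reads in HFD libraries and 222, 176 and 181 in Allantoin-H libraries. The same ratio for Egfr was 372, 341 and 287 against 187, 121 and 101, so that Egfr and Insr had nearly equal counts in Allantoin-H replicate 6. For Adrb3 it was 33.9, 30.5 and 13.1 against 2.36, 1.78 and 2.52.

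Against Insr, 6 of 9 genes did not overlap between groups, all lower in Allantoin-H livers. Over the other tested genes, 39.3% did not overlap in their ratio to Insr, and 23.5% were lower without overlap. Their differences of the mean log2 ratio, Allantoin-H minus HFD, were -3.44 for Adrb3, -1.33 for Egfr, -0.97 for Gcgr, -0.92 for Avpr1a, -0.62 for Adra1b and -0.57 for Fgfr4. Each had a two-sided exact permutation p of 0.10, the smallest that 3 against 3 libraries allow, and 0.15 after Benjamini-Hochberg adjustment over the 9 ratios, so no single ratio could pass. Prlr (0.39), Lepr (0.83) and Igf1r (-0.53) overlapped. These ratios show unequal change between receptor genes within the same libraries, not that Insr itself was constant.

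**Figure D4:**
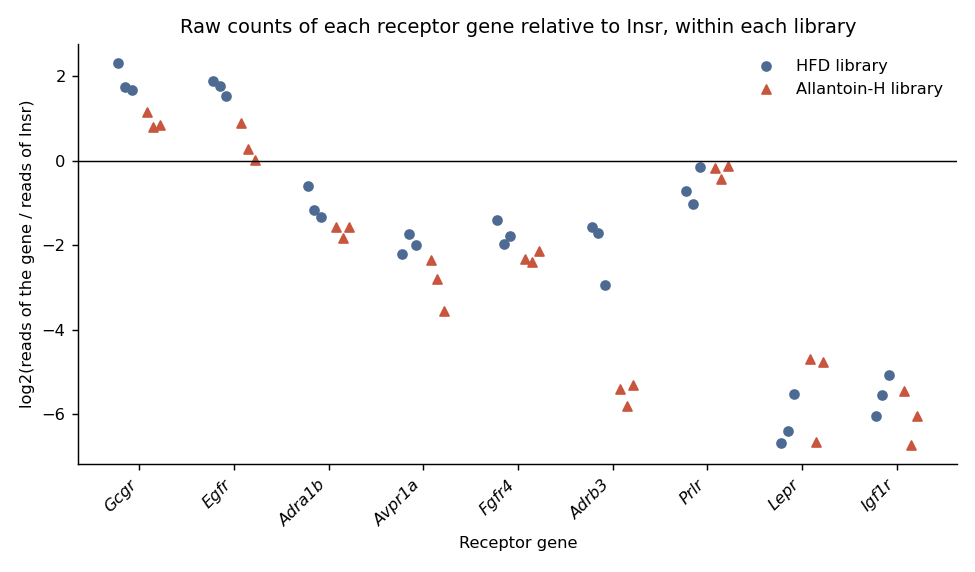
Log2 ratio of the raw counts of each receptor gene to those of Insr within each library (vertical axis, 0 at equal counts), with circles for HFD and triangles for Allantoin-H libraries. The triangles lie below the circles without overlap for Gcgr, Egfr, Adra1b, Avpr1a, Fgfr4 and Adrb3, and overlap them for Prlr, Lepr and Igf1r.

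The genes nearest in pattern were sought for the 3 called receptors among 11385 protein-coding genes, by the root mean square difference of centred log2 CPM over the 6 libraries. For Gcgr these were Lmf1, a chaperone for lipases, at 0.0515 and Tmem161a at 0.0736. Lmf1 was at 71.1, 46.7 and 40.3 CPM in HFD and at 29.0, 28.8 and 24.8 CPM in Allantoin-H libraries, with the same high HFD replicate 1 as Gcgr. Egfr was followed most closely by Ppp1r35 (0.0824) and Nelfa (0.102). For Adrb3 the nearest were Lgals4, a galectin, at 0.338 and Col5a3, a collagen chain, at 0.434, several times farther than for Gcgr and Egfr. This measure includes the size of the group difference, which was also larger for Adrb3 (-3.46, against -0.91 for Gcgr and -1.20 for Egfr). Lgals4 was at 89.0, 43.0 and 37.1 CPM in HFD and at 6.08, 6.68 and 5.4 CPM in Allantoin-H libraries.

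Among 28 other receptors and co-receptors of the same families, 19 were tested, of which 5 were higher and 0 lower in Allantoin-H livers by each of edgeR, DESeq2 and limma-voom (1 lower at an unadjusted p under 0.05), and the median difference was 0.43 on the log2 scale. Over all tested genes edgeR called 11.3% higher and 13.0% lower. Klb, the co-receptor β-Klotho that FGFR4 needs to bind FGF15, was higher with and without each single library. It rose from 6.55, 9.09 and 8.53 CPM to 19.1, 23.7 and 19.5 CPM, a log2 fold change of 1.36 (SE 0.20, edgeR adjusted p = 0.00403). Its groups were far apart, while the Fgfr4 groups nearly touched. Il6st, the signalling chain of the interleukin-6 receptor family, rose by 0.85 on the log2 scale, and the call was lost without Allantoin-H replicate 5. Met, the hepatocyte growth factor receptor (0.75), was not called without Allantoin-H replicate 5 or 6. Adra2b (1.57), an α2-adrenergic receptor, was not called without HFD replicate 1 or any one Allantoin-H library, and Il6ra (0.72), the interleukin-6 receptor, not without HFD replicate 1 or 2 or Allantoin-H replicate 4 or 5, nor with the length and GC trends removed.

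The ligands and binding proteins had 18 tested genes of 33, with 2 higher, 2 lower (11.3% and 13.0% over all tested genes) and a median of 0.29. Hgf, the ligand of Met, was higher at 12.7 ± 2.99 against 1.81 ± 0.938 CPM (SD, n = 3 each, log2 fold change 2.83, edgeR adjusted p = 0.00351), and it is also on the list of stellate cell markers. Igf1, the growth hormone-dependent hormone that binds Igf1r, was lower at 491, 473 and 441 CPM against 936, 856 and 831 CPM (log2 fold change -0.90, edgeR adjusted p = 0.00605). Igfbp5, which binds Igf1, was higher (2.21), with Allantoin-H libraries spread from 13.6 to 64.8 CPM. Calls of these 3 genes held in each fit that left out 1 library, and that of Igf1 was lost with scaling by library size only (-0.48, edgeR adjusted p = 0.101). Fgf21, a stress-induced liver hormone, was at 27.3, 4.54 and 2.84 CPM in HFD and at 1.76, 0.710 and 2.43 CPM in Allantoin-H livers, with a log2 fold change of -2.82. Without HFD replicate 1, where it was highest, the value was -1.18 and not called, and the call was also lost without any one Allantoin-H library, by limma-voom and with the length and GC trends removed.

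Downstream of the tyrosine kinases, 40 of 41 adaptors and brakes were tested, with 5 higher, 2 lower (11.3% and 13.0% over all tested genes) and a median of 0.11. Enpp1, a membrane enzyme that inhibits the insulin receptor, was higher (13.2 to 28.8 CPM, log2 fold change 1.12, edgeR adjusted p = 0.00857), and its call held without each library. Grb14, an adaptor that blocks the insulin receptor kinase, was lower at 44.9, 37.7 and 39.6 CPM against 65.4, 80.5 and 68.1 CPM (-0.81, edgeR adjusted p = 0.00958), a call lost without Allantoin-H replicate 5 or with scaling by library size only. The list thus holds brakes of insulin signalling that differed in both directions. The adaptor Sh2b1 (-0.79) was not called without Allantoin-H replicate 4 or 6 or with library-size scaling, the docking protein Gab1 (0.76) not without any one Allantoin-H library, and Appl1 (0.70) not without any one of these or HFD replicate 1 or 3, nor with the length and GC trends removed (0.46).

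For the cytokine receptors, 19 of 20 JAK-STAT and SOCS genes were tested, with 2 higher, 0 lower (11.3% and 13.0% over all tested genes) and a median of -0.16. DESeq2 and limma-voom gave the same counts, as did an unadjusted p under 0.05. The 2 were Jak1 (0.54) and Jak2 (0.62), the latter the kinase bound to the leptin and prolactin receptors, and neither was called without HFD replicate 2 or any one Allantoin-H library, nor Jak2 without HFD replicate 3, and both calls were also lost with the length and GC trends removed. Jak2 was at 10.8, 11.3 and 10.3 CPM in HFD and at 14.5, 17.5 and 17.8 CPM in Allantoin-H libraries.

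For the G protein-coupled receptors, 47 of 53 G proteins and effectors were tested, with 8 higher, 2 lower (11.3% and 13.0% over all tested genes) and a median of 0.13. Adcy9, an adenylyl cyclase, was higher (5.49 to 14.6 CPM, log2 fold change 1.42, edgeR adjusted p = 0.00711), as was Rgs5, which speeds the shut-off of G proteins (17.4 to 45.7 CPM, 1.39, edgeR adjusted p = 0.00895). Grk3, a kinase that desensitizes activated receptors, was lower at 2.86, 4.32 and 3.04 CPM against 12.01, 6.72 and 14.5 CPM (-1.69, edgeR adjusted p = 0.00937). These 3 calls held without each library. Rgs3 (1.32), a relative of Rgs5, Gnaq (0.87), the Gq subunit used by the Adra1b and Avpr1a receptors, and Gnb2 (-0.62), a β subunit, were called with all 6 libraries. The Rgs3 call was lost without Allantoin-H replicate 5 or 6, those of Gnaq and Gnb2 without any one Allantoin-H library, and that of Gnb2 also without HFD replicate 2, with library-size scaling or with the length and GC trends removed.

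All 29 textbook liver target genes of these receptors were tested, with 5 higher, 3 lower (11.3% and 13.0% over all tested genes) and a median of 0.05. Ccnd1, the cyclin that growth factors induce before division, went from 3.17, 2.37 and 2.26 CPM to 17.3, 23.8 and 20.2 CPM (log2 fold change 2.98, edgeR adjusted p = 0.00106). Cyp7a1, the rate-limiting enzyme of bile acid synthesis that FGFR4 signalling represses, was higher at 61.1, 151 and 84.1 CPM against 31.8, 22.1 and 30.5 CPM (1.81, edgeR adjusted p = 0.00660). Both held without each library. G6pc3, a broadly expressed glucose-6-phosphatase, was lower (-1.51), a call lost without Allantoin-H replicate 4. Srebf1 (0.64), an insulin-induced lipogenic factor, and Ppargc1a (1.0), a glucagon-induced coactivator, were not called without HFD replicate 2 or any one Allantoin-H library, nor Ppargc1a without HFD replicate 1 or with the length and GC trends removed. Igf1 and Fgf21 stand on this list too.

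**Figure D5:**
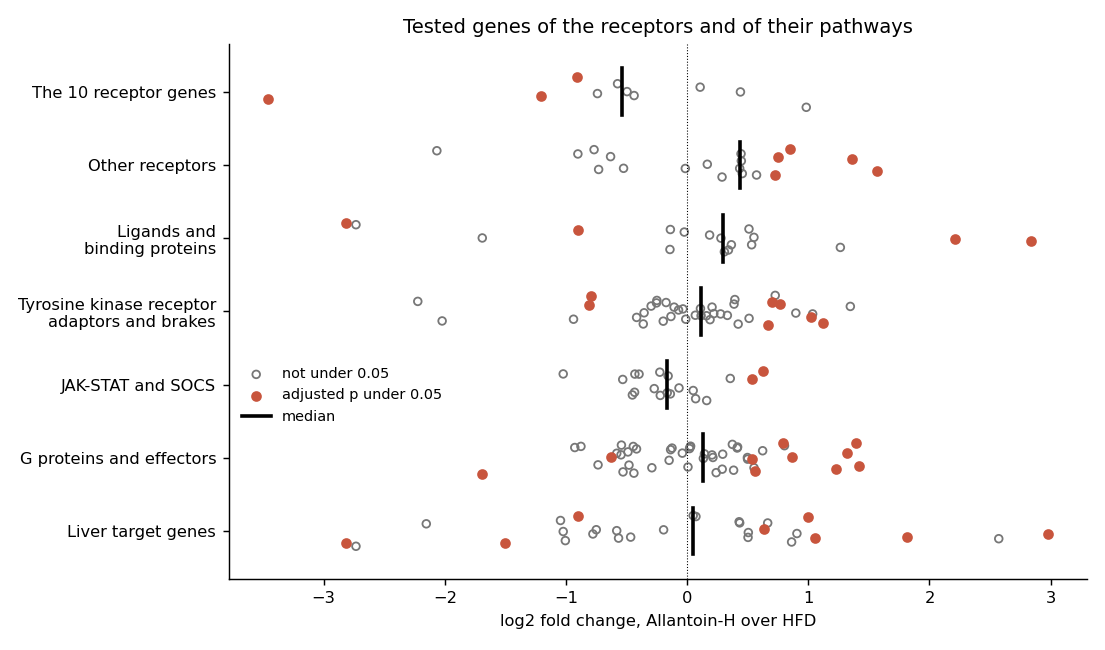
Log2 fold change, Allantoin-H over HFD (horizontal axis), of the tested genes among the 10 receptor genes and 6 related lists, with 1 point per gene, filled where the adjusted p was under 0.05, and a bar at each list's median. The receptor genes have a median of -0.54 and filled points only below 0, the other receptors of the same families a median of 0.43 and filled points only above 0, and the 5 other lists have medians from -0.16 to 0.29.

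Markers of the liver's cell types are given by group as follows, and their part in the receptor results was not tested. Their counts of called genes stand beside 11.3% higher and 13.0% lower over all tested genes. Of 14 hepatocyte markers 2 were higher and 4 lower, the list median being -0.36 on the log2 scale. Apoa1, Apoa2, Ttr and Serpina1c were lower (-1.23, -1.03, -0.79 and -1.13) and Cps1 and Apob higher (1.05 and 0.92). The calls of Apoa1 and Serpina1c held without each library, those of Apoa2 and Ttr were lost without Allantoin-H replicate 4 or 5 or with scaling by library size only, and those of Cps1 and Apob without HFD replicate 1 or 2 or any one Allantoin-H library. With the length and GC trends removed, Apoa2 was at -0.49 and Cps1 at 0.84, and neither was called. The summed level of the hepatocyte markers was 113122 to 114212 CPM in HFD and 93413 to 123680 CPM in Allantoin-H libraries, which overlap. Kupffer cell and macrophage markers summed to 192 to 463 CPM in HFD and 518 to 593 CPM in Allantoin-H libraries, with 3 of 12 called higher and 0 lower (median 0.81), and 6, 6 and 5 higher and 0 lower at an unadjusted p under 0.05, by DESeq2 and by limma-voom. Stellate cell markers summed to 188 to 282 and 391 to 453 CPM, with 6 of 13 called higher and 1 lower (median 0.81). DESeq2 gave the same counts, and limma-voom 5 higher and 0 lower. The lower gene, Acta2, was at 1.20, 11.4 and 0.92 CPM in HFD libraries. Its call was lost without HFD replicate 2 or any one Allantoin-H library, with scaling by library size only and with the length and GC trends removed. Of 12 sinusoidal endothelial markers 2 were higher and 1 lower (median 0.51), with sums of 143 to 260 and 229 to 357 CPM. Of 4 tested cholangiocyte markers 0 were higher and 1, Sox9, was lower (median -0.47), the same as at an unadjusted p under 0.05 and by DESeq2 and limma-voom, with sums of 44.7 to 171 and 33.4 to 87.1 CPM. Of 6 red blood cell markers 0 were called by edgeR (median -0.27) and 1 was higher at an unadjusted p under 0.05, by DESeq2 and by limma-voom, with sums of 332 to 1336 and 878 to 1054 CPM.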

How the data were processed

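The deposited table holds raw read counts per gene in whole numbers, which the authors made from filtered reads. The aligner and counting tool are not given in the sources used here, and the submitters' processing notes name the genome build GRCm38 (mm10). The 429 features without an Ensembl identifier (0.197% to 0.306% of counts) were left out. Symbols, positions and transcript lengths came from GENCODE M21. Counts were normalized by TMM, filtered with filterByExpr and tested with edgeR 4.0.16 (R 4.3.3) by the quasi-likelihood test with Benjamini-Hochberg adjustment over 12795 genes, with the group as the only term. The SE was derived from the F statistic. The procedure was tested on simulated data. Near-identical transcripts (at least 95% over 200 bases) were searched with BLAST 2.17.0. The receptor genes and lists were chosen with earlier results of these data known. All 10 receptor genes are named, with at most 6 called genes of the smallest p per list and the 2 nearest in pattern (mean of at least 1 CPM) per called receptor, and a gene this rule selects is not reported here. The alternatives were RLE, upper-quartile and library-size scaling, other filters on low counts, leaving out each library, DESeq2 1.42.0, limma-voom (limma 3.58.1), removal of length and GC trends, leaving out the mitochondrial chromosome, keeping all features, and stricter thresholds.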

Additional observations from a re-analysis of the deposited data

How the results depend on the processing

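Over 19 alternatives, Adrb3 was called lower in 19, Egfr in 17 and Gcgr in 13, and none of the 3 changed direction. The number of receptor genes called lower fell from 3 to 1 with scaling by library size only and to 1 at an adjusted p under 0.01, and ranged from 2 to 4 in the fits that left out 1 library. The number called higher went from 0 to 1 with scaling by library size only, and from 0 to 1 over the fits without 1 library (1, Prlr, without HFD replicate 3). Insr was highest at 0.53 with scaling by library size only (edgeR adjusted p = 0.0746). It changed sign, to -0.081 with the length and GC trends removed, and ranged from -0.014 to 0.18 without 1 library. The cause was not tested. Fgfr4, Igf1r and Lepr were called in no alternative, and Lepr could not be tested where 10 counts were required in every library. Scaling by library size only called 3162 genes higher and 674 lower (82.4% of calls higher, against 46.5%), and the fits without 1 library called 460 to 1773 higher and 564 to 2008 lower. The low ends came from the fits without an Allantoin-H library (460 to 702 higher, 564 to 832 lower). Fits without an HFD library called 1222 to 1773 higher and 1339 to 2008 lower. The other receptors had 1 to 8 called higher and 0 to 3 lower over the alternatives, the G protein list 2 to 15 and 1 to 4, the adaptors 2 to 13 and 0 to 5, and the target genes 2 to 9 and 1 to 10. Of 52 genes selected by the naming rule that are not among the 10 receptor genes, 20 were called in every fit without 1 library and 0 changed sign in any alternative. The medians of the JAK-STAT, G protein, target gene, hepatocyte and red blood cell lists changed sign under some alternatives. No paired analysis was possible because the groups share no replicate numbers. The depth limits statements on Igf1r and Lepr, which had 9 to 51 counts per library.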
